A study of Mus musculus with 22 samples.

Results

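Transcripts of tumour granulocytic myeloid-derived suppressor cells (G-MDSCs) were compared between mice given entinostat, anti-CTLA-4 and anti-PD-1 (the triple combination) and mice given entinostat and anti-CTLA-4 without anti-PD-1 (the doublet). The comparison took the 4 samples of each group by their column names, 8 of the 22 samples of the series, and all 655 endogenous genes of the NanoString mouse myeloid panel, of which 420 passed a limit on low values and were tested. The cells had been selected from dissociated tumours by Ly6G on magnetic columns. All 8 samples came from female FVB-Neu-N mice, 7 to 8 weeks old at implantation of 50000 NT2.5 mammary tumour cells into the mammary fat pad. All these mice received entinostat at 5 mg/kg daily by mouth and anti-CTLA-4 (clone 9H-10) at 100 µg per mouse 2 times a week, for 3 weeks from 3 days after implantation, and the triple combination added anti-PD-1 (clone RPM1-14) at 100 µg on the same schedule. The other samples were vehicle (6), entinostat alone (4) and entinostat plus anti-PD-1 (4). The labels do not say whether these mice received anti-HER2, whether the mice without anti-PD-1 received its isotype control, or whether each sample is a separate mouse. The p-values therefore measure the spread between samples, which may be technical. The study's stated question was which transcript changes accompany the impaired function of these cells under treatment.

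G-MDSCs are neutrophil-like cells that accumulate in tumours and restrain T cells, among other means through arginase 1, reactive oxygen species, prostaglandins and checkpoint ligands. PD-1 and CTLA-4 are inhibitory receptors best known on T cells. Activated T cells release interferon-gamma, which acts on myeloid cells among others. Entinostat inhibits class I histone deacetylases, enzymes that remove acetyl groups from histones.

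No gene passed the test between the groups (0 of 420, 0%, limma with Benjamini-Hochberg adjustment, smallest adjusted p = 0.148). At an unadjusted p under 0.05 there were 111 genes higher (26.4%) and 4 lower (0.952%) in the triple combination, while edgeR on recovered barcode counts called 0 genes, with 43 at an unadjusted p under 0.05 (39 higher, 4 lower) with the lane factors and 91 (27 higher, 64 lower) with TMM factors. The split moved with the scaling. The median log2 fold change of all tested genes was 0.45, and 0.041 after the median of each sample was set equal, when 63 genes were higher (15%) and 41 lower (9.76%) at the same unadjusted p and 0 were called. Fold changes below are on the log2(normalized count + 1) scale, triple combination minus the doublet, and are to be read against that shift of 0.45.

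**Figure D1:**
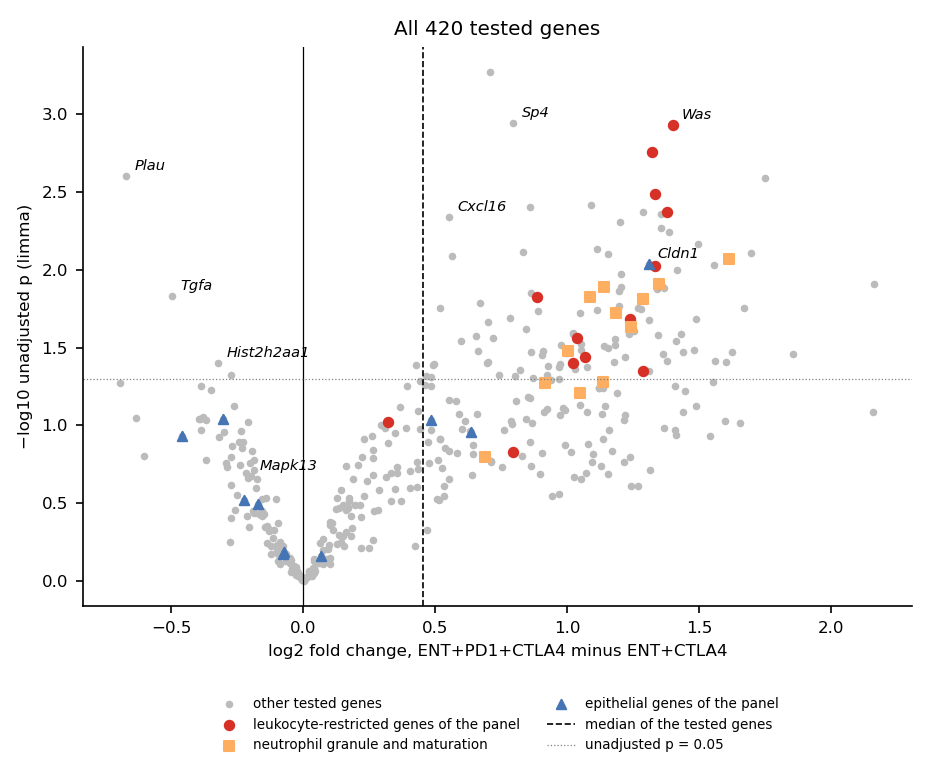
Each point is 1 of the 420 tested genes, by its log2 fold change (x axis, triple combination minus the doublet) and the −log10 of its unadjusted limma p (y axis, with the unadjusted threshold dotted). The dashed line is the median of 0.45. Leukocyte-restricted genes (red) and neutrophil genes (orange) lay to the right of 0, and epithelial genes (blue) lay on both sides of it. No gene passed the adjusted threshold.

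The count of calls depended on which samples were in the fit. Where 1 name stands on 2 columns, those columns are called samples a and b, which gave doublet samples a, 1, b and 3 and triple combination samples a, b, 2 and 4, in which order values are given throughout. Over the 420 genes, doublet sample a had Spearman correlations of 0.81 to 0.85 with the 3 others of its group and of 0.91 to 0.97 with the triple combination, while those 3 had 0.98 with each other. It was the highest of its group in 276 genes and the lowest in 104, and lay within the range of the triple combination in 278. Without it, 180 genes (42.9%) were called higher in the triple combination and 11 (2.62%) lower, at a median log2 fold change of 0.64. When the sample medians were also set equal, 114 genes (27.1%) were called higher and 119 (28.3%) lower. The split between higher and lower calls thus changed with the scaling. Fits without doublet sample a are quoted below because of where its values lay. Their calls and adjusted p-values are therefore descriptions with no controlled error rate, not tests of the groups. The same holds for fits without triple combination sample a.

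Triple combination sample a stood between the groups. Its correlations were 0.95 to 0.97 with doublet samples 1, b and 3 and 0.91 with doublet sample a, and 0.97, 0.87 and 0.92 with triple combination samples b, 2 and 4. It lay within the range of doublet samples 1, b and 3 in 115 of the 420 genes, while all 4 triple samples lay above those 3 in 193. It was the lowest of its group in 223 of the 420 genes. It was run on the first cartridge, between 2 vehicle samples, whereas the other 7 samples of the comparison shared the second cartridge with vehicle samples 3, V1 and V2, and vehicle sample 3 took the lane next to triple combination sample 4. With triple combination sample a and vehicle sample 3 both left out, 35 genes were called. Without triple combination sample a, 30 genes (7.14%) were called higher and 1 (0.238%) lower, and all 31 were also among the 191 called without doublet sample a. No call was made with any of the other 6 samples left out in turn, or with cartridge as a block.

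**Figure D2:**
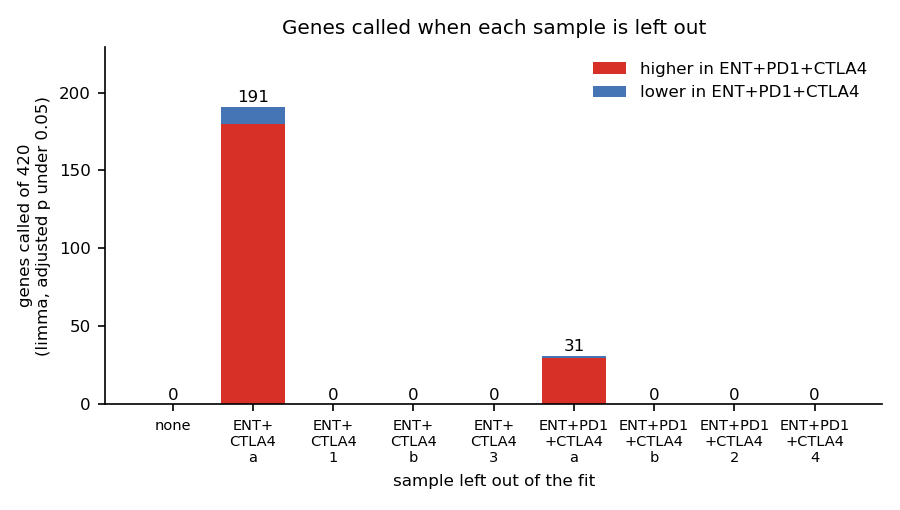
The bars count the genes called (y axis, of 420, limma adjusted p under 0.05) with no sample left out and with each of the 8 samples left out of the fit in turn (x axis), split into genes higher (red) and lower (blue) in the triple combination. Calls appeared without doublet sample a (191) and without triple combination sample a (31), and were 0 otherwise.

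Depth varied between samples. A barcode counted as 1.48, 0.400, 0.580 and 0.614 normalized counts in the doublet and as 0.529, 1.69, 9.78 and 2.07 in the triple combination, with 165662 to 443871 and 23296 to 391309 barcodes in all. Triple combination sample 2 was the shallowest, so a normalized count of 78.2 there is 8 barcodes. The negative controls, probes with no target, averaged 8.31, 2.50, 1.96 and 4.30 normalized counts in the first group and 3.30, 11.6, 28.1 and 12.9 in the second. The exact permutation p of 5 depth measures ran from 0.0857 to 0.171 (two-sided, adjusted p = 0.171 for each, smallest possible p 0.0286). With the negative controls subtracted, 0 genes were called and the median log2 fold change was 0.23. The part of depth and background in the results below was not tested further.

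The labelled cell type was checked against its markers. S100a8 and S100a9, abundant neutrophil proteins, were among the highest counts, but Ly6g, whose protein was used to select the cells, counted 8.86, 4.40, 1.74 and 2.46 and then 5.82, 5.07, 9.78 and 12.4, under the limit of 29.3 in each of the 8 samples. The neutrophil enzyme genes Elane, Mpo and Ctsg were not above the limit either as group means on the log2 scale. All 5 T cell, 3 NK cell and 1 B cell markers on the panel were under the limit as means of every group. Cdh1, the epithelial cadherin, was present at 764, 1211, 1310.5 and 1216 and then 1162, 1047, 889.7 and 841 normalized counts.

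The pan-leukocyte and endothelial markers had the highest median fold changes of the lists with at least 3 tested genes, at 1.35 and 1.34. That order changed with the setting, since without doublet sample a they were 1.80 and 2.20, and after quantile normalization the complement and Fc receptor lists, both at 0.84, lay above the pan-leukocyte 0.72. Ptprc encodes CD45, the surface phosphatase of all leukocytes. It counted 620.4, 136, 155 and 224 in the doublet and 446, 643, 635 and 657 in the triple combination. Sample a of the first group lay inside the range of the triple combination and its 3 mates lay below it, which gave a difference of 1.33 ± 0.40 on the log2 scale (SE, adjusted p = 0.148 by limma), or 1.80 ± 0.33 without that sample (adjusted p = 0.00334). Was, an actin regulator of blood cells, counted 29.5, 9.19, 10.4 and 14.1 (doublet) and 18.5, 38.9, 68.4 and 47.5 (triple), with 7 barcodes behind the highest value and doublet sample a above the lowest triple sample (log2 fold change 1.40 ± 0.37, adjusted p = 0.148). Vav1, a signalling exchange factor of leukocytes, counted 236, 60.4, 59.1 and 82.9 (doublet) and 141, 267, 293 and 299.7 (triple), with doublet sample a again inside the range of the triple combination (log2 fold change 1.38 ± 0.43, adjusted p = 0.148). All 5 pan-leukocyte markers tested had an unadjusted p under 0.05 and a fold change above 0, and their median was 1.35, against 26.4% and 0.45 of all tested genes. Of the 4 tested endothelial markers, 1 was higher at that unadjusted p, a share close to the 26.4%. The fold change was above 0 in 3 of these 4 and -0.048 in Flt1.

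The start regions of these 3 genes are shown because they were the pan-leukocyte markers with the smallest p. All 3 were lowest in doublet samples 1, b and 3, a pattern that many other genes shared. The windows run from 250 bases before to 50 after the annotated start (RefSeq, GRCm38.p6), and all 3 genes were found in that table. Was lies on the minus strand of chromosome X (chrX:8090442-8090741), Ptprc on the minus strand of chromosome 1 (chr1:138175256-138175555, the first of its 2 windows) and Vav1 on the plus strand of chromosome 17 (chr17:57278850-57279149). Capitals mark GAGGAA on either strand, a core read by ETS factors such as PU.1 of blood cells.
Was: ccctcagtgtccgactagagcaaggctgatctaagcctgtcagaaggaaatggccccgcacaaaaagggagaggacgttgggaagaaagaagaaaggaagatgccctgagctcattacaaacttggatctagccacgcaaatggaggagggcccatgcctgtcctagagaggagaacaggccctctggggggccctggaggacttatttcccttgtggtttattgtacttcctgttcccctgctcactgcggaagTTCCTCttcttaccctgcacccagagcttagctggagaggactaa
Ptprc: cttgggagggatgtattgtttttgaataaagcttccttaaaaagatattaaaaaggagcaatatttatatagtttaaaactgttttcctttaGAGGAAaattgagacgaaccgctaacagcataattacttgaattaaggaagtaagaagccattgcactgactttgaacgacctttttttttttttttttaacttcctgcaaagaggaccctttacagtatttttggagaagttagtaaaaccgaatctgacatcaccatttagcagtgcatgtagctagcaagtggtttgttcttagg
Vav1: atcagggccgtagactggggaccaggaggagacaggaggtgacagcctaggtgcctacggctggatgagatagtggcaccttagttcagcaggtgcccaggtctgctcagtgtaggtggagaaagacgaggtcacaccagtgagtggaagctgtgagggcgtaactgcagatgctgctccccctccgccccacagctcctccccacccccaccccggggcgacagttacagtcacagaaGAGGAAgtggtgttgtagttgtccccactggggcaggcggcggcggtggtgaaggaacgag
Each window held 1 match, the second Ptprc window held 0, and 28.3% of all 32851 promoter windows of the same length held at least 1. A match describes these letters and shows no binding.

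A list of 14 leukocyte-restricted genes and one of 10 epithelial genes were written after the values were seen and are described only. The mean log2 level of the leukocyte-restricted genes was 7.55, 5.43, 5.50 and 6.15 in the doublet and 6.76, 7.27, 7.49 and 7.62 in the triple combination. The lowest were samples 1, b and 3 of the first group, and its sample a lay among the triple samples. The mean of the epithelial genes was 7.48, 7.47, 7.53 and 7.61 and 7.49, 7.67, 7.79 and 7.61, a span of less than 0.4 with overlapping groups. That holds for the deposited scaling. Relative to the median of each sample the epithelial mean was 0.25, 1.04, 1.09 and 1.11 in the doublet and 0.76, 0.71, 0.49 and 0.35 in the triple combination, highest in doublet samples 1, b and 3 and lowest in doublet sample a. Of the 14 leukocyte-restricted genes, 12 were higher at an unadjusted limma p under 0.05, beside 26.4% of all tested genes. This share is no separate evidence, since the list was written with these values known. It also holds the 5 pan-leukocyte markers tested above. Of the 10 epithelial genes, 1 was higher and 0 were lower at that p. The leukocyte-restricted list had a median of 1.26 on the log2 scale, or 0.85 with sample medians equal. The epithelial list had -0.075 and -0.49, and all tested genes had 0.45 and 0.041. In bulk samples more cells of a type and more RNA per cell cannot be told apart.

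**Figure D3:**
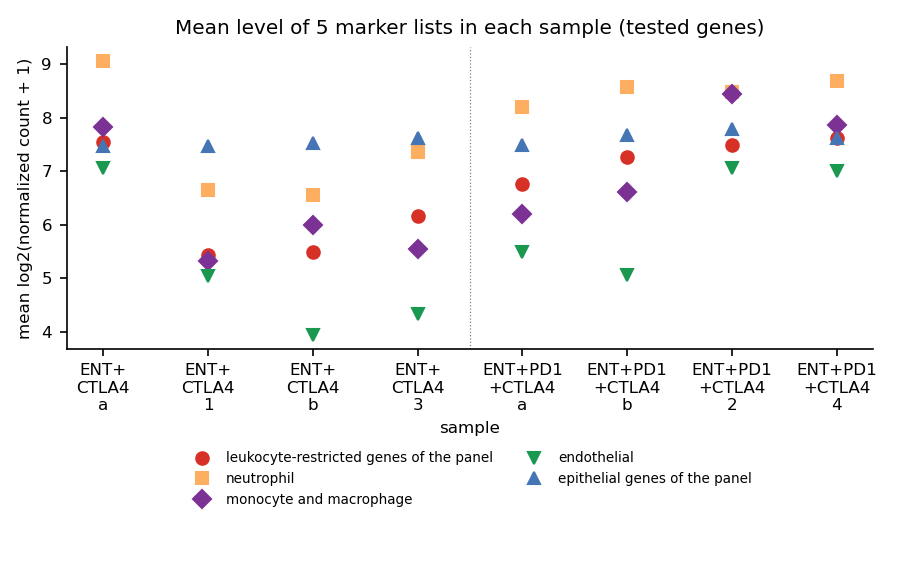
Points give the mean log2(normalized count + 1) of the tested genes of 5 marker lists (y axis) in each of the 8 samples (x axis, the doublet left of the dotted line, triple combination right). On this deposited scaling the epithelial mean ran from 7.47 to 7.79, while the leukocyte-restricted mean ran from 5.43 to 7.62 and was high in doublet sample a.

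Neutrophil genes were likewise lowest in doublet samples 1, b and 3. S100a9, 1 chain of calprotectin, counted 12459.7, 2107, 1959 and 4309 (doublet) and 8842, 11476, 8271 and 9362 (triple). Samples 1, b and 3 of the doublet were the lowest and sample a was the highest of all 8 (log2 fold change 1.29 ± 0.48, adjusted p = 0.16, and 1.85 ± 0.40 without sample a, adjusted p = 0.00347). S100a8, the other chain, counted 7226, 1308, 1079 and 2309 (doublet) and 5097, 6192, 5113 and 4561 (triple), again with sample a the highest of all (log2 fold change 1.24 ± 0.50, adjusted p = 0.17). Cxcr2, the receptor that draws neutrophils to CXC chemokines, counted 419.5, 92.3, 71.3 and 164 (doublet) and 258, 291, 420.4 and 347 (triple) (log2 fold change 1.14 ± 0.42, adjusted p = 0.16). Camp, the cathelicidin of secondary granules, counted 26.6, 1.20, 2.90 and 6.75 (doublet) and 12.2, 22, 19.6 and 24.8 (triple), under the limit in all 8 samples, and was tested because another group of the study lay above it. Its log2 fold change of 1.61 was 0.87 with background subtracted and 0.76 with a pseudocount of 10. Of the 12 tested genes of neutrophil granules and maturation, 12 had a fold change above 0 and 8 an unadjusted p under 0.05, against 26.4% of all tested genes, and the median was 1.14 against 0.45 (0.73 with sample medians equal). Without doublet sample a, all 12 were called higher, against 42.9% of all tested genes, and 11 with the medians also equal, against 27.1%, Camp counted among the 12. The 12 neutrophil markers on the panel, of which 10 were tested, summed to 22281, 3961, 3531 and 7492 and 15342, 19561, 15555 and 16181 normalized counts.

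Suppressive effectors gave 1 gene whose groups did not overlap on the deposited values. Arg1, whose product depletes arginine, counted 25.1, 22, 28.4 and 28.2 in the doublet and 44.9, 64.2, 78.2 and 33.1 in the triple combination. The 4 doublet values were under the limit of 29.3. On the deposited values, all 4 triple samples lay above all 4 of the other group. That pattern was shown by 8 genes in this direction (1.9%) and 1 in the other (0.238%). The closest values were 28.4 in doublet sample b and 33.1 in triple combination sample 4. The negative controls averaged 1.96 and 12.9 in these 2 samples, a wider gap, so with these subtracted the 2 values change order. Triple combination sample 2, the highest, held 8 barcodes. The log2 fold change was 0.99 ± 0.54 with an adjusted p of 0.227 (limma). It was 0.83 with background subtracted, 0.58 with sample medians equal and 0.28 after quantile normalization. Leaving out doublet sample a did not bring it past the threshold (0.98, adjusted p = 0.173). The spread that enters the test is that of all 5 groups, and Arg1 counted 60.4 ± 38.8 in vehicle (SD, n = 6), 56.3 ± 23.8 in entinostat and 60.5 ± 58.6 in entinostat plus anti-PD-1 (SD, n = 4). Ptgs2, which makes prostaglandin H, counted 1769.6, 376, 487 and 896 (doublet) and 1626, 2036, 870.1 and 1488 (triple), and the groups overlapped (log2 fold change 0.97 ± 0.46, adjusted p = 0.181). Cybb, the catalytic subunit of the phagocyte oxidase, counted 91.6, 14.4, 20.9 and 16.6 (doublet) and 29.1, 71.0, 127 and 149 (triple), with triple combination samples 2 and 4 the highest (log2 fold change 1.56 ± 0.70, adjusted p = 0.17).

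Vegfa, the main angiogenic factor, counted 244, 139, 200.1 and 214 (doublet) and 220.5, 375, 313 and 269 (triple), with a log2 fold change of 0.56 ± 0.19 (adjusted p = 0.153). It was among the 31 genes called without triple combination sample a (0.69, adjusted p = 0.0446), but its value with sample medians equal was 0.15. Cd84, an adhesion receptor of the SLAM family, counted 214, 43.6, 37.1 and 86.0 (doublet) and 149, 216, 293 and 209 (triple) (log2 fold change 1.5 ± 0.49, adjusted p = 0.153). Stat3, a transcription factor tied to myeloid suppression, counted 675, 616, 568 and 581 (doublet) and 718, 675, 626 and 643 (triple) (log2 fold change 0.13 ± 0.12, 95% interval -0.12 to 0.37), and was -0.28 with sample medians equal. Tgfb1, the suppressive cytokine TGF-beta 1, counted 331, 195, 188 and 204 (doublet) and 218, 294, 264 and 349 (triple) (log2 fold change 0.31 ± 0.24, adjusted p = 0.346), or -0.10 with the medians equal. Nos2, the inducible nitric oxide synthase, counted 29.5, 10.4, 21.4 and 11.1 (doublet) and 12.2, 15.2, 78.2 and 43.4 (triple), with 8 barcodes in triple combination sample 2. No group mean of Nos2 or Il10 on the log2 scale was above the limit, and neither was tested. Of 10 tested genes on the list of suppressive effectors, 10 had a positive fold change and 5 an unadjusted p under 0.05 (26.4% of all tested genes), with a median of 0.98 against 0.45 (0.57 with sample medians equal).

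**Figure D4:**
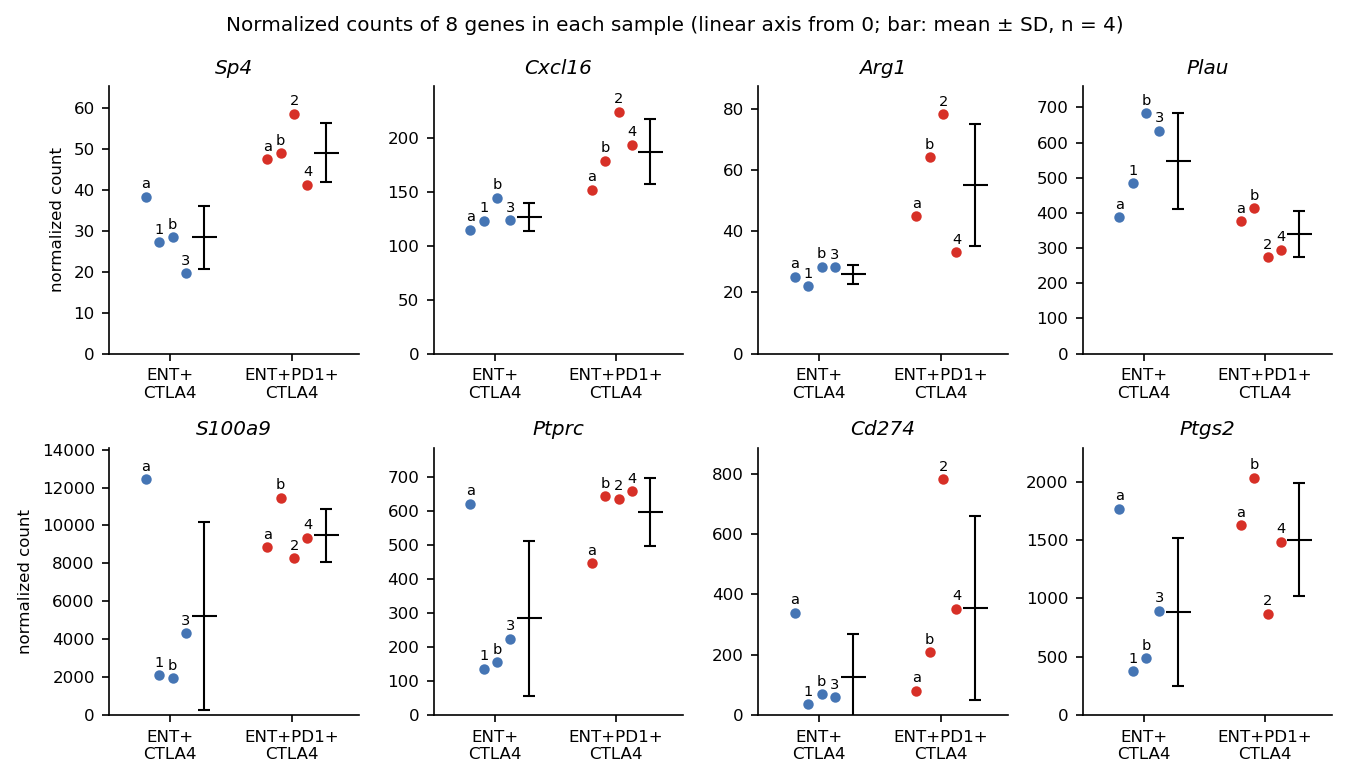
Points give normalized counts (linear y axes from 0) of 8 genes in the 8 samples, labelled by sample name, and the bars give the mean ± SD of 4 samples per group (the lower bar of Cd274 in the doublet passes below 0 and is clipped). On these values, with no background subtracted, the groups did not overlap in Sp4, Cxcl16 and Arg1. In S100a9, Ptprc, Cd274 and Ptgs2, doublet sample a lay far above samples 1, b and 3.

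Among checkpoint and co-stimulatory genes, Cd274, which encodes the PD-1 ligand PD-L1, had the largest log2 fold change of the 6 tested members. It counted 339.7, 35.2, 68.4 and 60.2 in the doublet and 80.4, 208, 782 and 353 in the triple combination, where triple combination sample 2 was the highest and sample a the lowest. The groups overlapped, and the log2 fold change was 1.62 ± 0.71 (adjusted p = 0.17), or 2.29 ± 0.66 without doublet sample a (adjusted p = 0.0122). Icosl, the ligand of ICOS on T cells, counted 93.1, 20.8, 15.1 and 26.4 (doublet) and 36.0, 62.6, 88.0 and 118 (triple) (log2 fold change 1.20 ± 0.46, adjusted p = 0.16), and Cd40, a receptor for T cell help, counted 31.0, 6, 4.06 and 9.21 (doublet) and 7.4, 25.4, 39.1 and 41.3 (triple), with 4 barcodes in triple combination sample 2. The genes of the antibodies' own targets, Pdcd1 and Ctla4, were under the limit as group means on the log2 scale, and so was Pdcd1lg2, the other PD-1 ligand. Linear group means were 2.55 ± 1.41 against 11.7 ± 12.7 for Pdcd1 and 5.84 ± 3.28 against 16.0 ± 7.85 for Ctla4 (normalized counts, SD, n = 4). The negative controls averaged 8.31, 2.50, 1.96 and 4.30 (doublet) and 3.30, 11.6, 28.1 and 12.9 (triple), so no change of these 2 genes can be read from their means. The 6 tested members of 21 on the panel had a median of 1.23 against 0.45, and 5 had an unadjusted p under 0.05, against 26.4% of all tested genes.

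The interferon targets on the panel were few. Mx1, an antiviral GTPase, counted 29.5, 10.4, 4.64 and 11.1 (doublet) and 10.1, 22, 88.0 and 64.1 (triple), with the highest value resting on 9 barcodes (log2 fold change 1.49 ± 0.59, adjusted p = 0.164). Isg15, a ubiquitin-like modifier, counted 106, 36.8, 41.8 and 44.2 (doublet) and 59.8, 103, 127 and 66.1 (triple) (log2 fold change 0.70 ± 0.32, adjusted p = 0.17). Both had an unadjusted p under 0.05. Of 11 tested genes of the interferon-gamma response and antigen presentation, 1 did, Psmb9, an immunoproteasome subunit, at 65.0, 33.6, 33.0 and 38.7 (doublet) and 37.5, 52.4, 147 and 78.5 (triple) (log2 fold change 0.74 ± 0.35, adjusted p = 0.18). Their median of 0.48 was near that of all tested genes. H2-Ab1, a class II antigen-presenting chain, counted 573, 40.0, 95.1 and 48.5 (doublet) and 69.8, 203, 831 and 916 (triple). It was high in sample a of the first group and in triple combination samples 2 and 4, the samples in which the macrophage genes were also high.

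Inflammatory genes under NF-kB had a median log2 fold change of 0.95 over 20 tested members, all positive, with 5 at an unadjusted p under 0.05, a share close to the background of 26.4%. Il1b, the cytokine interleukin-1 beta, counted 8746, 2123, 1850.3 and 3539 (doublet) and 6369.8, 9785, 7157 and 7711 (triple), and overlapped only through sample a of the first group (log2 fold change 1.21 ± 0.44, adjusted p = 0.16). Tnfaip3, a feedback inhibitor of NF-kB, counted 2729.8, 659, 620.4 and 960.4 (doublet) and 1420.2, 2628, 1779 and 2763 (triple), and Birc3, an inhibitor of apoptosis, 325, 44.8, 58.0 and 81.7 (doublet) and 117, 198, 284 and 256 (triple), both with sample a of the first group high (log2 fold changes 1.02 ± 0.42 and 1.14 ± 0.49). Nlrp3, the inflammasome sensor, counted 1347, 203, 263 and 306 (doublet) and 389, 972, 1056 and 1304 (triple), and Il1rn, the antagonist of the interleukin-1 receptor, 2306, 396, 499 and 586 (doublet) and 840.2, 1682, 1652 and 1751 (triple). Neither had an unadjusted p under 0.05 (adjusted p = 0.187 and 0.222). Without doublet sample a, 16 of the 20 were called higher, against 42.9% of all tested genes, and 10 with the medians also equal, against 27.1%.

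Chemokines were uneven. Cxcl16, a transmembrane chemokine that binds CXCR6 on T cells, counted 115, 124, 145 and 124 (doublet) and 152, 179, 225 and 194 (triple), with no overlap and with doublet sample a the lowest of all 8. Its log2 fold change was 0.55 ± 0.17 (adjusted p = 0.148), or 0.14 with sample medians equal. It was called without doublet sample a (0.51, adjusted p = 0.0352), but turned to -0.10 when the medians were also equal. Cx3cl1, the other transmembrane chemokine of the panel, had lower values, at 109, 142, 129 and 140.0 (doublet) and 105, 127, 88.0 and 80.6 (triple) (log2 fold change -0.39 ± 0.19, adjusted p = 0.185). Cxcl2, a neutrophil attractant, counted 2880.4, 460.5, 501 and 760.2 (doublet) and 1231, 2242, 2112 and 2143 (triple) (log2 fold change 1.16 ± 0.50, adjusted p = 0.17). Of 13 tested chemokines 12 had a positive fold change and 2 an unadjusted p under 0.05, fewer than the background share.

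Of the 13 tested chemokine receptors and adhesion molecules, 7 had an unadjusted p under 0.05, with a median of 1.13, where all tested genes had 26.4% and 0.45. Itgb2, the shared chain of the leukocyte integrins, counted 139, 19.6, 29.0 and 59.6 (doublet) and 88.8, 118, 147 and 138 (triple) (log2 fold change 1.35 ± 0.49, adjusted p = 0.16), and Itga4, a chain of the integrin VLA-4, 26.6, 7.59, 4.06 and 7.98 (doublet) and 10.1, 18.6, 39.1 and 53.7 (triple), with 4 barcodes in triple combination sample 2. Among Fc receptors and their signalling partners, Fcgr4, an activating receptor for IgG, counted 81.2, 21.2, 23.2 and 37.5 (doublet) and 47.6, 93, 176 and 88.9 (triple) (log2 fold change 1.35 ± 0.42, adjusted p = 0.148). Syk, the kinase downstream, counted 284, 57.6, 60.9 and 93.3 (doublet) and 142, 216, 381 and 331 (triple) (log2 fold change 1.33 ± 0.46, adjusted p = 0.153). The 8 tested members had a median of 1.23, and 5 had an unadjusted p under 0.05, against the same 26.4%. Pattern receptors had 4 of 9 and a median of 0.86, with Clec7a, the beta-glucan receptor dectin-1, at 415, 66.3, 58.0 and 119 (doublet) and 233, 284, 293 and 339 (triple).

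**Figure D5:**
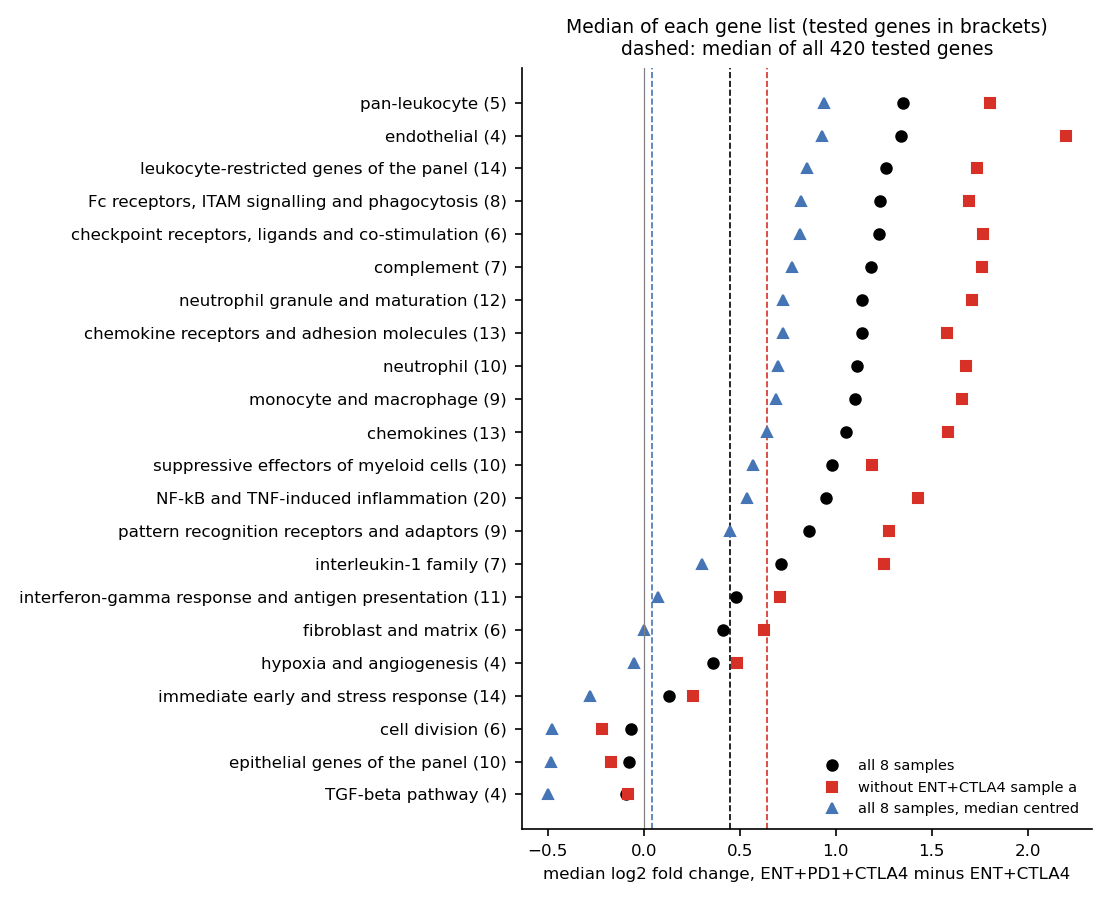
Points give the median log2 fold change (x axis, triple combination minus the doublet) of each gene list with at least 4 tested genes (y axis, number tested in brackets) over all 8 samples (black), without doublet sample a (red) and over all 8 with sample medians equal (blue). Dashed lines are the medians of all 420 tested genes, at 0.45, 0.64 and 0.041. Leukocyte and endothelial lists lay to the right of these lines, and the cell division, epithelial and TGF-beta lists to the left.

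Macrophage and endothelial markers were highest in doublet sample a and triple combination samples 2 and 4, whereas the 10 epithelial genes summed to 2787, 4006, 4378 and 4288 normalized counts in the doublet and 3855, 3654, 3001 and 2924 in the triple combination, lowest in those 3 samples. The mean log2 level of the same 10 genes differed from that sum. It was 7.48, 7.79 and 7.61 in those 3 samples, and triple combination sample 2 was the highest of all 8. Relative to the sample medians, that mean was again lowest in the 3 (0.25, 0.49 and 0.35). Of the 9 tested macrophage and monocyte markers, 0 had an unadjusted p under 0.05, although their median was 1.10. All 12 macrophage and monocyte markers on the panel, tested or not, summed to 3371, 578, 975 and 694 normalized counts in the doublet and 1082, 1527, 4703 and 3514 in the triple combination. C1qb, a complement chain made by macrophages, counted 418, 60.8, 101 and 62.0 (doublet) and 148, 211, 645 and 504 (triple), high in sample a of the first group and in triple combination samples 2 and 4. The endothelial selectin gene Sele counted 119.7, 22.8, 8.12 and 14.7 (doublet) and 43.9, 35.5, 176 and 119.9 (triple), and the endothelial cadherin gene Cdh5 79.8, 12.4, 5.22 and 6.75 (doublet) and 20.1, 16.9, 88.0 and 82.7 (triple), high in the same 3 samples. The 4 endothelial markers summed to 564, 165, 135 and 122 and 194, 157, 548 and 533. Col3a1, a fibrillar collagen, counted 564, 132, 52.8 and 64.5 (doublet) and 170.3, 184, 411 and 504 (triple). The fibroblast list was mixed, with a fold change above 0 in 4 of its 6 tested genes. Its member Pdgfra was called lower without doublet sample a (-0.58, limma adjusted p = 0.0244). The part of these cells in the leukocyte and inflammatory results was not tested.

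With the deposited scaling, 112 of the 420 tested genes had a fold change below 0, and none of them passed the test with all 8 samples. Plau, the urokinase plasminogen activator, counted 387, 485, 684 and 634 in the doublet and 377, 414, 274 and 296 in the triple combination, and overlapped only through sample a of the first group, which lay between triple samples a and b. The means were 548 ± 136 and 340.1 ± 66.5 (SD, n = 4), with a log2 fold change of -0.67 ± 0.19 (adjusted p = 0.148). It was called lower without doublet sample a (-0.83 ± 0.19, adjusted p = 0.00359), without triple combination sample a (-0.73, adjusted p = 0.0446) and, at -1.43, without the first of these with medians equal (adjusted p = 0.00335). Tgfa, a ligand of the EGF receptor, counted 78.3, 129.5, 155 and 126 (doublet) and 92, 94.7, 78.2 and 72.3 (triple) (log2 fold change -0.50 ± 0.19, adjusted p = 0.16), and was called lower without doublet sample a (-0.70, adjusted p = 0.00415). The histone gene Hist2h2aa1 counted 1278, 1979, 1949 and 1811 (doublet) and 1482, 1469, 1584 and 1054 (triple), overlapping again through sample a of the first group (log2 fold change -0.32 ± 0.15, adjusted p = 0.17). The 11 genes called lower without that sample also included Lamb3, a laminin chain of epithelia, and F11r, a junction adhesion molecule. Pdgfra, Tnc, Jun and Itgb1 were among them too. Of the 10 listed epithelial genes, 2 were called lower and 2 higher without that sample, against 2.62% and 42.9% of all tested genes. Cldn1, another of the 10, was called higher without triple combination sample a (1.70, limma adjusted p = 0.0424).

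Other genes with lower values overlapped between the groups or differed less. Mmp13, a collagenase, counted 34.0, 26.8, 95.7 and 48.5 (doublet) and 22.2, 40.6, 39.1 and 16.5 (triple), with 4 barcodes in triple combination sample 2 and doublet sample b the highest (log2 fold change -0.69 ± 0.34, adjusted p = 0.184, and -0.34 without doublet sample b). Mapk13, the p38 delta kinase, was the gene with all 4 triple samples below the other group, at 179, 197, 179.8 and 202 (doublet) and 171, 172, 156 and 159 (triple), but its log2 fold change was -0.20 ± 0.15 (adjusted p = 0.343). Of the 6 tested cell division genes, Birc5, which encodes survivin, counted 66.5, 116, 96.2 and 105 (doublet) and 114, 93, 58.7 and 57.9 (triple). Cdkn1a, the cell cycle inhibitor p21, counted 646, 322, 282 and 356 (doublet) and 513, 599, 596 and 597 (triple) (log2 fold change 0.60 ± 0.25, adjusted p = 0.17). The median of that list was -0.067, or -0.48 with sample medians equal, when 4 of the 6 were called lower without doublet sample a (28.3% of all tested genes were). That of 4 TGF-beta genes was -0.091, or -0.50 with medians equal, when 3 were called lower without that sample. For the 3 tested histone deacetylase and chromatin genes it was 0.034, turning to -0.38 with sample medians equal.

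The other lists held few genes higher at an unadjusted p under 0.05, where all tested genes had 26.4% and a median of 0.45. Of 7 tested complement genes 1 passed, C5ar1, the anaphylatoxin receptor, at 659, 102, 115 and 166 (doublet) and 327, 426, 548 and 453 (triple), and the median was 1.18. Of 7 interleukin-1 family genes 1 passed (median 0.71), and of 6 fibroblast genes 0 (median 0.41, which was -0.044 after quantile normalization). The 4 hypoxia and angiogenesis genes had a median of 0.36, which turned to -0.049 with sample medians equal. The 14 immediate early genes had a median of 0.13, which likewise turned to -0.28, with Dusp1, a MAP kinase phosphatase, at 3606, 1708, 1961 and 2346 (doublet) and 2984, 3549, 3246 and 3160.1 (triple). The dendritic cell list had 2 tested genes, Itgax, an integrin chain, at 65.0, 15.2, 11.6 and 20.9 (doublet) and 23.3, 37.2, 58.7 and 57.9 (triple), and Batf3, a transcription factor, whose fold change of 0.66 was -0.15 after quantile normalization. Hdc, the histamine-making enzyme and the only tested mast cell and basophil gene, counted 316, 43.2, 51.6 and 82.3 (doublet) and 134, 211, 215 and 262 (triple).

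Besides Arg1 and Cxcl16, the genes with all triple samples above the other group on the deposited values included Sp4, Ttk, Daglb, Smad1 and Tnfsf10. The last pair were named here after their values were seen. Background was not subtracted when the groups were checked for overlap. Sp4, a transcription factor of the Sp family, counted 38.4, 27.2, 28.4 and 19.6 (doublet) and 47.6, 49.0, 58.7 and 41.3 (triple), with 6 barcodes at the highest (log2 fold change 0.80 ± 0.21, adjusted p = 0.148). Over the alternative settings the fold change of Sp4 ranged from 0.0020 to 0.96. Ttk, a kinase of the mitotic checkpoint, counted 39.9, 38.0, 38.3 and 35.6 (doublet) and 44.9, 57.5, 68.4 and 47.5 (triple), with 7 barcodes there and a fold change of 0.50 that was -0.19 after quantile normalization and -0.084 with sample medians equal and without doublet sample a. Tnfsf10, the death ligand TRAIL, counted 26.6, 19.6, 21.4 and 27.0 (doublet) and 28.6, 27.1, 58.7 and 45.5 (triple), with 6 barcodes there and a gap of less than 1 barcode. Smad1, a mediator of BMP signals, counted 76.8, 65.5, 70.2 and 61.4 (doublet) and 77.2, 77.8, 78.2 and 97.1 (triple), where the groups were apart by less than 1 barcode of any triple sample, and its fold change was 0.26 or, with sample medians equal, -0.15. Daglb, a lipase that makes an endocannabinoid, counted 16.2, 11.6, 19.1 and 14.1 (doublet) and 19.6, 27.1, 68.4 and 33.1 (triple), mostly under the limit. Its groups were apart only by 19.6 in triple combination sample a against 19.1 in doublet sample b. A barcode of that triple sample counts as 0.529.

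The effect of anti-PD-1 in the presence of anti-CTLA-4 was then set against its effect on entinostat alone, as a difference of differences that uses separate samples for each. No gene passed (0 of 420, 0%, limma, smallest adjusted p = 0.120), with 77 higher (18.3%) and 4 lower (0.952%) at an unadjusted p under 0.05, and edgeR called 0, with 43 at that p with the lane factors (39 higher, 4 lower) and 79 with TMM factors (23 higher, 56 lower). With sample medians equal, 26 genes were higher (6.19%) and 61 lower (14.5%) at that p, and 0 were called. The median over all tested genes was 0.61, beside 0.45 in the comparison described above and -0.14 in entinostat plus anti-PD-1 minus entinostat. Sp4 (0.94 ± 0.29, adjusted p = 0.25) and Ercc1, a DNA repair nuclease subunit (0.84 ± 0.24, adjusted p = 0.25), were among those with the smallest p in that direction. In the other direction were Hist2h2aa1 (-0.81 ± 0.21, adjusted p = 0.196), Plau (-0.96 ± 0.27, adjusted p = 0.25) and Cx3cl1 (-0.64 ± 0.27, adjusted p = 0.252). Plau counted 355 ± 16.6 in entinostat and 435 ± 49.4 in entinostat plus anti-PD-1, and its log2 difference there was 0.29. Without doublet sample a, 145 genes passed as higher (34.5%) and 7 as lower (1.67%) in the difference of differences, and with sample medians also equal 59 passed as higher (14%) and 97 as lower (23.1%).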

How the data were processed

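RNA of Ly6G-selected cells was counted with the NanoString mouse myeloid panel, per the labels' protocols. The authors deposited normalized counts, a linear signal in which the barcode counts of a lane are multiplied by 1 factor. Which software did this is not given in the sources used here. The geometric mean of the 20 housekeeping genes ran from 19.8 to 451 barcodes over the 22 samples, but only from 172 to 194 normalized counts. The deposited scaling thus brought the housekeeping genes to nearly the same level in every sample. Of tools, limma alone is listed in the submitters' processing notes, with no version. In each sample 100% of values up to 200 were whole multiples of the lane's step, within 0.1 barcode, which gave back barcode counts. The file headers name 2 cartridges. Of the 655 endogenous symbols, 645 were found in the RefSeq gene table. Unused value columns numbered 0.

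Log2(normalized count + 1) of all 22 samples was fitted with limma 3.58.1 (R 4.3.3) with 5 group means, 17 residual and 2.14 prior degrees of freedom, two-sided. Genes with a group mean, taken on the log2 scale, above 29.3 (negative controls, log2 mean plus 2 SD) were tested, which left out 235. Those with an adjusted p under 0.05 are called. edgeR 4.0.16 quasi-likelihood tests on barcode counts were an alternative. Both were tested on simulated data.

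Named genes were, as none was called, 8 per direction by smallest p, 15 fixed genes, up to 3 of each list with the smallest p, the 5 in each direction with the widest gap between groups, and 3 in each direction for the difference of differences. The members and lists were chosen with earlier results of these data known. Lists are described by counts and medians beside those of all tested genes. Some genes that these rules name are not reported here.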

Additional observations from a re-analysis of the deposited data

Results flagged for a closer look

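A sample was far from the other 3 of its group in 8 of the 168 groups examined (84 named genes in 2 groups), measured as the gap to its nearest neighbour as a share of the group's range. Chance gives about 1 in 20 such groups. Triple combination sample a was the lowest of its group in Cdkn1a (0.976 of the range), Il1rn (0.921), Ptprc (0.913), Cxcl2 (0.900) and Vav1 (0.848). Triple combination sample 2, the shallowest, was the lowest in Fosb (0.899). Doublet sample a was the lowest in Cdh1 (0.853) and the highest in Tgfb1 (0.851). The named genes are correlated, so these are not 8 separate events, and no explanation was tested.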

How the results depend on the processing

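No paired analysis was possible because the replicate numbers that the column names give without ambiguity, 2 and 4 against 1 and 3, share no number between the groups. The count of 0 called genes held with median centring, quantile normalization, TMM factors, either other pseudocount (0.5 or 10), no filter, a filter at 2 times the limit, the 8 samples alone, cartridge as a block or the second cartridge alone, robust eBayes, both edgeR fits, background subtraction and an epithelial covariate. The count ranged from 0 to 191 with 1 sample left out (31 without triple combination sample a, 191 without doublet sample a), and was 35 when vehicle sample 3 was left out along with triple combination sample a, and 207 with sample weights. In alternatives chosen after seeing the data it was 120 without doublet sample a and triple combination sample 2, 240 without sample a of both groups, and 233 without the first of these with medians equal. The difference of differences, 0, ranged from 0 to 152 with 1 sample left out, and was 239 with sample weights and 80, 226 and 156 under the 3 settings just named. It was not run in the 8 samples alone or the second cartridge alone, which lack its groups. The median log2 fold change of 0.45 was 0.041 with median centring, -0.092 with quantile normalization, 0.060 in edgeR with TMM factors and 0.037 with median centring without doublet sample a.

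Of the 84 named genes tested, those that changed sign did so as follows, given in the order median centring, quantile, TMM, edgeR TMM, and median centring without doublet sample a. Stat3 gave -0.28, -0.21, -0.27, -0.24 and -0.43, Hif1a -0.25, -0.19, -0.23, -0.19 and -0.31, Tgfb1 -0.097, -0.039, -0.081, -0.039 and -0.10, Ercc1 -0.12, -0.30, -0.098, -0.14 and -0.41, Hdac5 -0.056, -0.048, -0.038, -0.028 and -0.094, and Hdac6 -0.38, -0.64, -0.35, -0.44 and -0.64. Hdac6 was also between -0.12 and 0.16 with 1 sample left out, and negative with sample weights (-0.23), in edgeR with lane factors (-0.024), with background subtracted (-0.43), without doublet sample a and triple combination sample 2 (-0.19) and with the epithelial covariate (-0.078). Quantile normalization turned Batf3 (-0.15) and Ttk (-0.19), and the last setting turned Cxcl16 (-0.097), Ifngr1 (-0.023) and Ttk (-0.084). The cause was not tested. Values of triple combination sample 2 under 98 normalized counts rest on 10 or fewer barcodes.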

Other observations

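Without doublet sample a, the called genes with the largest log2 fold changes included Fabp4, a fatty acid binding protein (3.16 ± 1.14, SE, limma adjusted p = 0.0321), and Chil3, a chitinase-like protein (3.08 ± 0.65, adjusted p = 0.00347). They also included Thbd, the endothelial thrombin receptor thrombomodulin (2.69 ± 0.74, adjusted p = 0.00887), and Gpr65, an acid-sensing receptor (2.39 ± 0.46, adjusted p = 0.00334). The 4 were chosen after their values were seen, and with all 8 samples none of them was called.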
